A study of Mus musculus with 17 samples.

Results

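The genes described here are 33 genes of endothelial cells, the cells that line blood vessels, measured in whole mouse tumours by RNA sequencing. They were chosen by symbol, and all 33 were found among the 23284 gene symbols of each count table. They comprise 3 VEGF receptors, 4 genes of the Tie receptor system, 8 junction and surface glycoproteins, 6 transcription factors, 5 haemostasis and secreted proteins, 5 other receptors and signalling proteins, and a fenestral and a lymphatic marker.

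Endothelial cells grow toward VEGF through VEGF receptors, and Tie receptors then steady or loosen the vessel wall according to which angiopoietin is bound. Pituitary and thyroid capillaries are fenestrated, with pores closed by diaphragms made of the Plvap protein, and through them hormones reach the blood. In a bulk tumour sample a level of an endothelial gene reflects how many endothelial cells were present, how much of that RNA each one held and, for genes that other cells make too, how much came from those cells, and these cannot be told apart.

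The 17 tumours are labelled as neuroendocrine tumours of the pituitary, 8 of the genotype Rb1/Trp53/Crebbp and 9 of the genotype Rb1/Trp53, from a genetically engineered mouse model. Rb1 and Trp53 encode tumour suppressors, Crebbp encodes a histone acetyltransferase and transcriptional coactivator, and the study's design text names the search for genes that Crebbp regulates as its purpose. The labels give the genotype as gene names only; the driver of recombination, the alleles and the age and sex of the mice are not stated in the sources at hand, nor is it said that each tumour came from its own mouse, so p-values speak of the spread among these samples alone. The total count on genes was 8328297 to 28140755 per library (median 13456360).

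The libraries formed 2 sets by their hormone genes. In 7 libraries, called Calca-high, the count of Calca, the calcitonin gene, exceeded that of Pomc. They were Rb1/Trp53/Crebbp tumours T1, T2, T3 and T4 and Rb1/Trp53 tumours T1, T3 and T4, with 34470 to 176300 CPM, the counts scaled to a common library size, of Calca and 3.58 to 64.3 CPM of Pomc. In the other 10, called Pomc-high, Pomc stood at 93440 to 317800 CPM and Calca at 4.43 to 254.5 CPM. These were Rb1/Trp53/Crebbp tumours T5, T6, T7 and T8 and Rb1/Trp53 tumours T2, T5, T6, T7, T8 and T9. This division comes from the counts, and the study did not make it. In the Calca-high libraries the pituitary factors Tbx19 and Pax7 reached at most 0.32 and 0.18 CPM, which goes against the pituitary label that all 17 carry, and thyroid follicle genes were abundant there. The Calca-high Rb1/Trp53/Crebbp libraries were shallower (8328297 to 15490074 counts) than the Calca-high Rb1/Trp53 ones (20361712 to 28140755). Crebbp itself stood at 67.4 to 93.4 CPM in the Calca-high Rb1/Trp53/Crebbp libraries against 48.2 to 55.5 CPM in the Calca-high Rb1/Trp53 ones, and at 42.8 to 62.4 CPM in Pomc-high Rb1/Trp53/Crebbp against 39.6 to 116 CPM in Pomc-high Rb1/Trp53 ones. Counts over the whole gene do not show whether an exon was deleted, so they do not check the labels.

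Promoter sequences are shown for 5 genes that fell in Rb1/Trp53/Crebbp tumours of at least 1 set. In 4 of them there was a match to GGAAGT or CAGGAAG, forms of an ETS motif, and in Procr to neither. Other forms of the ETS core were not searched. Of the 17 genes that changed in a set 7 had a promoter in the table, and the other 2, Tek and Flt4, hold no match either and are not printed. Each sequence runs from 250 bases before the gene's start to 50 after it, 5′ to 3′ along the gene, from RefSeq on GRCm38.p6. Capitals mark letters matching GGAAGT or CAGGAAG on either strand, the reverse complements being ACTTCC and CTTCCTG, which are forms of the core bound by ETS factors such as Erg and Ets1. The motifs overlap where CAGGAAG is followed by T.
Kdr: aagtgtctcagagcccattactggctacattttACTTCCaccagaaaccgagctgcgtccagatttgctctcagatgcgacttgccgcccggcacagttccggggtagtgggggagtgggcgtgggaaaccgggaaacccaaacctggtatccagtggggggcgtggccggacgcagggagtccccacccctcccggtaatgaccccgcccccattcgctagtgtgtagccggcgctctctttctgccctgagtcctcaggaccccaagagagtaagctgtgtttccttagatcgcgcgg
Tie1: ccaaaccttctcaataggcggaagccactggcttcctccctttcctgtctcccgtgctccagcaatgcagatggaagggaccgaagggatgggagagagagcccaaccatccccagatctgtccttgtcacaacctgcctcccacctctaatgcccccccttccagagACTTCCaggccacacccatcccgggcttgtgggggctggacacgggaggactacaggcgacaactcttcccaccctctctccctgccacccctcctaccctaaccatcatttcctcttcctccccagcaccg
Eng: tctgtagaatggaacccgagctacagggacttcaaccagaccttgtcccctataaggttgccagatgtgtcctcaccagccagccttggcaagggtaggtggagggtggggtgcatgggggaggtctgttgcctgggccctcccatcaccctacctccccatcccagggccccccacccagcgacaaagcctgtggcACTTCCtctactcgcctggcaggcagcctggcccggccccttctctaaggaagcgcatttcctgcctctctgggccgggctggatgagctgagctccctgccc
Emcn: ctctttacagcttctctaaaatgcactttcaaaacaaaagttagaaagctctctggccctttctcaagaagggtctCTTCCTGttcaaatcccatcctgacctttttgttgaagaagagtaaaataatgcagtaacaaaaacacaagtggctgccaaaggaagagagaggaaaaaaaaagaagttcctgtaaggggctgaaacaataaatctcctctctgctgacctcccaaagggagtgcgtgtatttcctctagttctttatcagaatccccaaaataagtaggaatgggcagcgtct
Procr: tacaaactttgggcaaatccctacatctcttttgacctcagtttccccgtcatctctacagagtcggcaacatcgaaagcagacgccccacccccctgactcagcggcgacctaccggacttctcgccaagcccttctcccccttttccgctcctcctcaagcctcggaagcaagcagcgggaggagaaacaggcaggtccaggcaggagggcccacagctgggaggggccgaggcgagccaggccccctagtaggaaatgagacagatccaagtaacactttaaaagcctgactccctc
The Kdr promoter lies on the minus strand at chr5:75978406-75978705 and that of Tie1 on the minus strand at chr4:118489800-118490099. On the plus strand lie those of Eng (chr2:32646345-32646644), Emcn (chr3:137340828-137341127) and Procr (chr2:155750967-155751266). Of the 33 genes, 15 had a promoter in the table, and GGAAGT was in 6 of them (Egfl7, Eng, Flt1, Kdr, Mmrn1 and Tie1), against 26.5% of all 27025 genes with a promoter. CAGGAAG was in 5 of the 15 (Apold1, Cd34, Egfl7, Emcn and Erg), against 14.8% of all. The Procr window holds no match of these letters. A match is a description of the letters and not a binding site.

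Part of the endothelial genes were lower in Rb1/Trp53/Crebbp than in Rb1/Trp53 tumours within each set. In the Calca-high libraries 32 of the 33 genes passed the low-count filter, and 13 fell and 1, Sox7, rose (adjusted p under 0.05). Among all 14797 genes tested there, 36.2% passed the same threshold, 17.1% as lower and 19.1% as higher. The median log2 fold change of the 32 was -0.64, against -0.02 for all genes tested. Of 28 genes tested in the Pomc-high libraries 6 fell and 0 rose, where 8.42% of all 14010 genes passed, 5.26% as lower and 3.15% as higher. The median of the 28 was -0.74, against 0.01 for all genes tested, and 23 of the 28 had a negative sign. All adjusted p-values come from edgeR's quasi-likelihood test with Benjamini-Hochberg adjustment over all genes tested, and each log2 fold change, given with its SE, sets Rb1/Trp53/Crebbp over Rb1/Trp53 unless stated otherwise.

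Mmrn2, Procr and Plvap fell in each set. Of the 28 genes tested in both sets, 20 had a negative sign in both. When the 17 libraries were fitted together with the set in the model, 14 of the 33 fell, where 17.6% of 15432 genes passed, 9.51% as lower and 8.13% as higher, and the median of the 33 was -0.66. Without the set as a term, which is the contrast the labels give, 5 of 29 tested genes fell (Kdr, Ptprb, Icam2, Emcn and Procr) and Sox7 rose, where 3.86% of 14338 genes passed, 2.05% as lower and 1.81% as higher. That Sox7 call (adjusted p = 0.0446) was lost in 12 of 17 fits that left out a library. With the set as a term Sox7 missed the threshold (adjusted p = 0.0606). The groups did not overlap in CPM for 14 lower and 2 higher of the 32 genes in the Calca-high libraries, against 44.3% of all genes, 22.3% lower and 22.1% higher. Among the Pomc-high libraries 6 genes did not overlap, all lower, against 9.73% of all genes, 5.83% lower and 3.90% higher.

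These counts moved with single libraries. The Pomc-high count was 14 genes without Rb1/Trp53/Crebbp T8, and 4 without Rb1/Trp53/Crebbp T5 or T7 or without Rb1/Trp53 T2, T5, T6 or T9. In the Calca-high libraries it was 9 without Rb1/Trp53 T3 and 19 without Rb1/Trp53 T4. Without Rb1/Trp53 T3 the calls of Eng, Esam and Icam2 were lost, at adjusted p of 0.0651, 0.0515 and 0.0608. Rb1/Trp53/Crebbp T8 was the highest of the 4 Pomc-high Rb1/Trp53/Crebbp libraries in 21 of the 29 endothelial genes that reached 1 CPM in that group. It also had the highest sums of that group for fibroblast genes (348 CPM), macrophage genes (229 CPM) and C-cell genes (236 CPM), and the lowest Pomc (93440 CPM). The part of these cells in its endothelial levels was not tested.

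**Figure D1:**
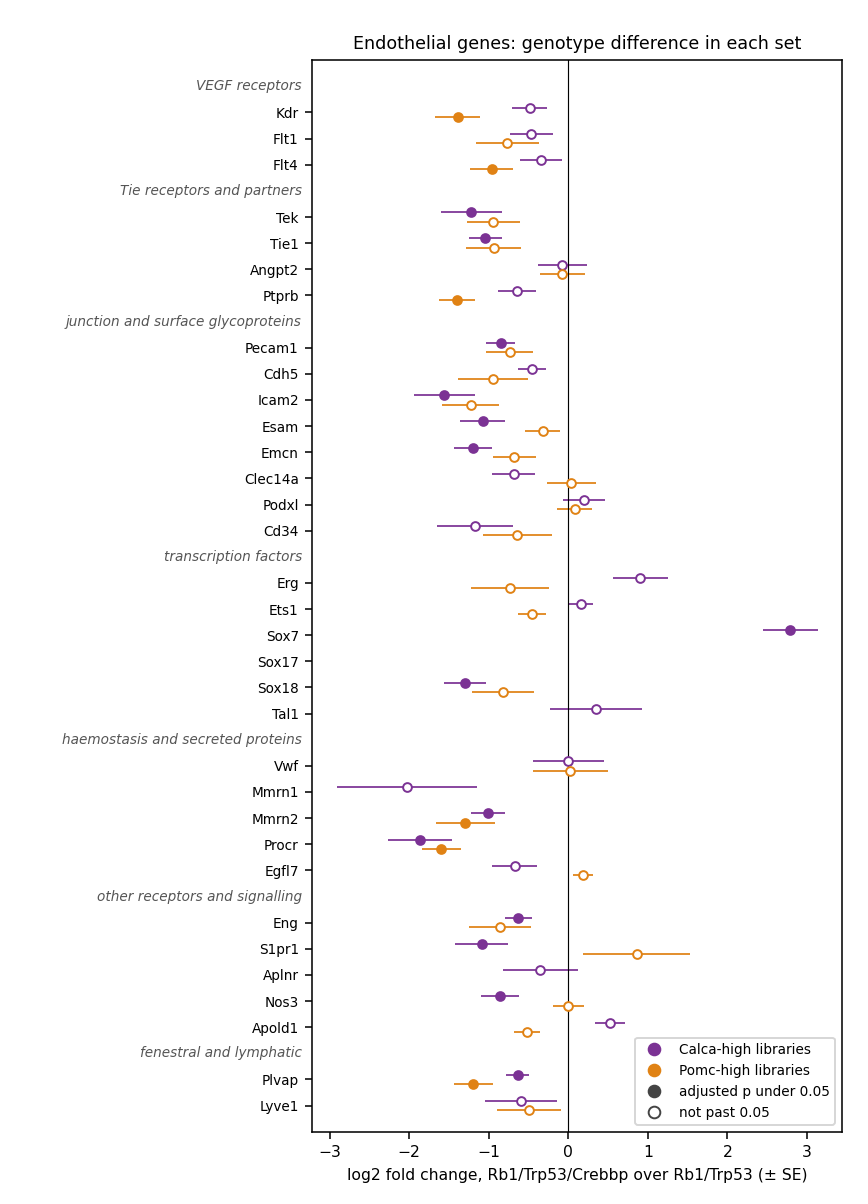
Log2 fold change (± SE, edgeR) of the endothelial genes, Rb1/Trp53/Crebbp over Rb1/Trp53, in the Calca-high libraries (purple, 4 against 3) and the Pomc-high libraries (orange, 4 against 6), ordered by role. Filled points have an adjusted p under 0.05, most points lie left of 0, and Sox7 in the Calca-high libraries stands far to the right at 2.79.

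Of the 3 VEGF receptors 2 fell in the Pomc-high libraries and 0 in the Calca-high ones in edgeR, where 0 also had an unadjusted p under 0.05. Kdr (VEGFR2), the main signalling receptor for VEGF-A, stood at 4.43, 4.59, 2.86 and 6.62 CPM in the Pomc-high Rb1/Trp53/Crebbp libraries, against 7.78 to 18.6 CPM (median 12.6, n = 6) in the Pomc-high Rb1/Trp53 ones. All 4 lay below all 6, and the log2 fold change was -1.39 ± 0.28 (adjusted p = 0.00976). Calca-high values of Kdr were 5.39, 5.44, 5.63 and 6.28 CPM in Rb1/Trp53/Crebbp tumours, against 10.6, 7.31 and 6.22 CPM in Rb1/Trp53 tumours. Those groups overlapped at a single Rb1/Trp53 library, with a log2 fold change of -0.49 ± 0.22 (adjusted p = 0.119). Flt4 (VEGFR3), which also marks lymphatic vessels, had 2.32, 2.52, 2.75 and 3.47 CPM in Pomc-high Rb1/Trp53/Crebbp libraries, against 2.93 to 8.05 CPM (median 5.23) in Pomc-high Rb1/Trp53 ones. The ranges met at the low end of Rb1/Trp53, and the call of its log2 fold change of -0.96 ± 0.27 (adjusted p = 0.0465) was lost in 8 of the 10 fits that left out a library (adjusted p up to 0.11). Calca-high values of Flt4 were 2.96, 5.07, 5.95 and 3.97 CPM in Rb1/Trp53/Crebbp, against 6.07, 5.15 and 6.12 CPM in Rb1/Trp53, a log2 fold change of -0.34 ± 0.26 (adjusted p = 0.332). Flt1 (VEGFR1), largely a decoy for VEGF, did not pass in either set, with -0.47 ± 0.27 in the Calca-high and -0.77 ± 0.40 in the Pomc-high libraries.

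In the Tie system Tek and Tie1 fell in the Calca-high libraries and Ptprb in the Pomc-high ones, and the ligand Angpt2 passed in neither. Tek (Tie2), the angiopoietin receptor, had 2.11, 3.79, 1.73 and 1.48 CPM in Calca-high Rb1/Trp53/Crebbp libraries, against 6.25, 6.36 and 3.46 CPM in Calca-high Rb1/Trp53 ones. Only Rb1/Trp53/Crebbp T2 lay above the lowest Rb1/Trp53 library, and the call of its log2 fold change of -1.22 ± 0.39 (adjusted p = 0.0401) was lost in 5 of 7 fits that left out a library (adjusted p up to 0.124). Pomc-high values of Tek were 1.27, 0.962, 0.881 and 2.50 CPM in Rb1/Trp53/Crebbp, against 1.95 to 3.7 CPM (median 2.76) in Rb1/Trp53, with -0.94 ± 0.33 (adjusted p = 0.0971). Tie1, its orphan partner, had 3.49, 4.95, 4.10 and 3.91 CPM in Calca-high Rb1/Trp53/Crebbp libraries, against 10.4, 7.76 and 7.58 CPM in Calca-high Rb1/Trp53 ones. The groups were well separated, and the log2 fold change was -1.04 ± 0.21 (adjusted p = 0.00791). Pomc-high values of Tie1 were 3.90, 1.63, 2.31 and 4.20 CPM in Rb1/Trp53/Crebbp, against 3.32 to 8.4 CPM (median 6.03) in Rb1/Trp53, with -0.94 ± 0.34 (adjusted p = 0.104).

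Ptprb (VE-PTP), which dephosphorylates Tek and VE-cadherin, had 5.80, 7.18, 3.19 and 8.08 CPM in Pomc-high Rb1/Trp53/Crebbp libraries, against 12.6 to 22.3 CPM (median 15.9) in Pomc-high Rb1/Trp53 ones. The lowest Rb1/Trp53 library lay well above the highest Rb1/Trp53/Crebbp one, and the log2 fold change was -1.40 ± 0.23 (adjusted p = 0.00344). Calca-high values of Ptprb were 5.81, 9.66, 8.64 and 6.99 CPM in Rb1/Trp53/Crebbp, against 14.5, 13.7 and 8.78 CPM in Rb1/Trp53, with -0.65 ± 0.24 (adjusted p = 0.0656). Angpt2, the ligand that endothelial cells store and that loosens vessels, overlapped between genotypes in each set. It stood at 12.9 to 30.6 CPM in Rb1/Trp53/Crebbp against 16.0 to 21.1 CPM in Rb1/Trp53 in the Calca-high libraries, and at 22.8 to 73.0 CPM in Rb1/Trp53/Crebbp against 35.5 to 62.0 CPM in Rb1/Trp53 in the Pomc-high ones. The log2 fold changes were -0.08 ± 0.31 and -0.07 ± 0.28 in these sets (adjusted p = 0.869 and 0.902).

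Of the 8 junction and surface glycoproteins, 4 fell in the Calca-high libraries. Pecam1 (CD31), the junctional protein used to stain vessels, had 9.51, 13.9, 10.6 and 11 CPM in Calca-high Rb1/Trp53/Crebbp libraries, against 24.6, 20.2 and 16.8 CPM in Calca-high Rb1/Trp53 ones. The groups did not overlap, and the log2 fold change was -0.85 ± 0.18 (adjusted p = 0.00898). Pomc-high values of Pecam1 were 5.27, 4.29, 4.73 and 10.7 CPM in Rb1/Trp53/Crebbp, the last in T8, against 5.63 to 15 CPM (median 10.5) in Rb1/Trp53, with -0.74 ± 0.30 (adjusted p = 0.14). Icam2, an adhesion ligand of leukocytes, was among the lowest in level, with 2 to 8 raw counts in the Calca-high Rb1/Trp53/Crebbp libraries and 19 to 34 in the Calca-high Rb1/Trp53 ones. These are 0.211, 0.428, 0.512 and 0.296 CPM in Rb1/Trp53/Crebbp against 1.10, 1.29 and 0.953 CPM in Rb1/Trp53, without overlap, a log2 fold change of -1.56 ± 0.38 (adjusted p = 0.0156). The groups were also separate in the Pomc-high libraries, at 0.527, 0.370, 0.550 and 1.05 CPM in Rb1/Trp53/Crebbp against 1.09 to 1.93 CPM (median 1.55) in Rb1/Trp53. There the log2 fold change of -1.23 ± 0.36 missed the threshold (adjusted p = 0.0538).

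Esam, a tight junction protein of endothelium and platelets, had 3.91, 4.28, 2.05 and 4.33 CPM in Calca-high Rb1/Trp53/Crebbp libraries, against 7.08, 7.23 and 8.98 CPM in Calca-high Rb1/Trp53 ones, a log2 fold change of -1.08 ± 0.28 (adjusted p = 0.0206). No library of one genotype reached the range of the other. Pomc-high values of Esam were 5.48, 3.26, 4.07 and 5.73 CPM in Rb1/Trp53/Crebbp, against 4.64 to 7.58 CPM (median 5.91) in Rb1/Trp53, with -0.32 ± 0.22 (adjusted p = 0.392). Emcn (endomucin), a sialomucin of capillaries and veins, had 3.38, 5.44, 4.22 and 2.84 CPM in Calca-high Rb1/Trp53/Crebbp libraries, against 8.81, 9.17 and 9.73 CPM in Calca-high Rb1/Trp53 ones. The Rb1/Trp53 values lay close together and well above, and the log2 fold change was -1.20 ± 0.24 (adjusted p = 0.00788). Pomc-high values of Emcn were 6.43, 4.07, 2.42 and 5.98 CPM in Rb1/Trp53/Crebbp, against 5.78 to 10.7 CPM (median 7.51) in Rb1/Trp53, with -0.68 ± 0.27 (adjusted p = 0.135).

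The remaining 4 surface genes did not pass in either set. Cdh5 (VE-cadherin), the adherens junction protein of endothelium, was lower without overlap in the Calca-high libraries, at 6.44 to 9.11 CPM in Rb1/Trp53/Crebbp against 10 to 12.2 CPM in Rb1/Trp53, with a log2 fold change of -0.46 ± 0.18 (adjusted p = 0.0802). Clec14a, an endothelial lectin that binds the Mmrn2 protein, was likewise separate there, at 1.58 to 2.69 CPM in Rb1/Trp53/Crebbp against 2.86 to 3.93 CPM in Rb1/Trp53, with -0.69 ± 0.27 (adjusted p = 0.0805). Pomc-high log2 fold changes were -0.94 ± 0.44 for Cdh5 and 0.04 ± 0.30 for Clec14a. Cd34, a sialomucin of capillary endothelium and of other stromal cells, had -1.17 ± 0.48 in the Calca-high and -0.64 ± 0.43 in the Pomc-high libraries. Podxl, a sialomucin that other epithelia make as well, had 0.19 ± 0.27 and 0.08 ± 0.22.

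The transcription factors did not move as a group. Sox18, a SoxF factor of vessel development, had 1.37, 2.51, 1.92 and 2.13 CPM in Calca-high Rb1/Trp53/Crebbp libraries, against 5.43, 5.0 and 4.47 CPM in Calca-high Rb1/Trp53 ones. The groups stood clear of each other, and the log2 fold change was -1.30 ± 0.26 (adjusted p = 0.00747). Pomc-high values of Sox18 were 0.949, 0.888, 0.991 and 2.50 CPM in Rb1/Trp53/Crebbp, the last in T8, against 1.49 to 3.29 CPM (median 2.38) in Rb1/Trp53, with -0.82 ± 0.39 (adjusted p = 0.211). Sox7, another SoxF factor, went the other way. It had 9.61, 10.3, 17.8 and 7.82 CPM in Calca-high Rb1/Trp53/Crebbp libraries, against 2.10, 1.55 and 1.30 CPM in Calca-high Rb1/Trp53 ones, a rise of 2.79 ± 0.35 (adjusted p = 0.00164). Each of the 4 exceeded the other 13 libraries of the series, while Sox7 was too low to be tested in the Pomc-high libraries, at 1.05, 0.814, 0.881 and 0.646 CPM in Rb1/Trp53/Crebbp against 0.574 to 1.25 CPM (median 0.869) in Rb1/Trp53.

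Sox17, the remaining SoxF factor, was at most 1.19 CPM in all 17 libraries. It was tested only where all were fitted together with the set in the model, with -0.37 ± 0.66 for the genotype with the set as a term. Erg, the ETS factor most used as an endothelial marker, had 0.90 ± 0.34 (adjusted p = 0.0726) in the Calca-high and -0.73 ± 0.49 (adjusted p = 0.377) in the Pomc-high libraries. Its Calca-high values were 2.01 to 3.58 CPM in Rb1/Trp53/Crebbp against 1.0 to 2.01 CPM in Rb1/Trp53, so its sign there was opposite to that of the other 6 core genes. Ets1, which many cell types express, had 0.15 ± 0.16 and -0.46 ± 0.18 (adjusted p = 0.124). Tal1, a factor of blood and endothelial precursors, had 0.34 ± 0.58 in the Calca-high libraries and was at most 0.469 CPM in the Pomc-high ones, too low to be tested.

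Of the haemostasis and secreted proteins, Procr and Mmrn2 fell in each set and the other 3 passed in neither. Procr, the endothelial protein C receptor that limits clotting, had 3.49, 7.27, 2.30 and 2.73 CPM in Calca-high Rb1/Trp53/Crebbp libraries, against 12.9, 18.7 and 12 CPM in Calca-high Rb1/Trp53 ones. Pomc-high values of Procr were 7.91, 9.62, 6.39 and 3.80 CPM in Rb1/Trp53/Crebbp, against 16.3 to 27.4 CPM (median 21.2) in Rb1/Trp53. The genotypes were separate in each set, with log2 fold changes of -1.86 ± 0.40 (adjusted p = 0.00952) in the Calca-high and -1.60 ± 0.24 (adjusted p = 0.00228) in the Pomc-high libraries. In T8, where most endothelial genes were at the top of the Pomc-high Rb1/Trp53/Crebbp range, Procr was the lowest of the 4. Mmrn2, a matrix protein made by endothelium, had 3.27, 3.48, 3.78 and 4.33 CPM in Calca-high Rb1/Trp53/Crebbp libraries, against 8.72, 7.95 and 6.07 CPM in Calca-high Rb1/Trp53 ones, a log2 fold change of -1.01 ± 0.21 (adjusted p = 0.00892). Pomc-high values of Mmrn2 were 1.48, 1.78, 1.76 and 3.07 CPM in Rb1/Trp53/Crebbp, against 1.72 to 7.51 CPM (median 5.55) in Rb1/Trp53, a log2 fold change of -1.30 ± 0.37 (adjusted p = 0.0471). One Rb1/Trp53 library, T8, lay within the Rb1/Trp53/Crebbp range, and this fall was lost in 8 of the 10 fits that left out a library (adjusted p up to 0.116).

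Vwf, the platelet-binding protein of endothelial granules, had 0.00 ± 0.45 in the Calca-high and 0.03 ± 0.47 in the Pomc-high libraries. Mmrn1, a protein of platelets and endothelium, had -2.03 ± 0.88 (adjusted p = 0.106) in the Calca-high libraries, at 0.423 to 1.15 CPM in Rb1/Trp53/Crebbp against 0.151 to 5.16 CPM in Rb1/Trp53. Egfl7, a secreted factor of growing vessels, had -0.68 ± 0.28 (adjusted p = 0.0944) and 0.18 ± 0.12 (adjusted p = 0.4).

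Among the other receptors, Eng, S1pr1 and Nos3 fell in the Calca-high libraries. Eng (endoglin), a co-receptor for TGF-beta and BMP9, had 15.1, 16.7, 10.1 and 14.6 CPM in Calca-high Rb1/Trp53/Crebbp libraries, against 20.9, 22.0 and 23.3 CPM in Calca-high Rb1/Trp53 ones, a log2 fold change of -0.63 ± 0.17 (adjusted p = 0.0233). The groups did not overlap. Pomc-high values of Eng were 7.70, 2.96, 2.97 and 11 CPM in Rb1/Trp53/Crebbp, against 5.63 to 14.4 CPM (median 12.3) in Rb1/Trp53, with -0.86 ± 0.39 (adjusted p = 0.191). S1pr1, the sphingosine 1-phosphate receptor that seals junctions, had 1.37, 3.24, 1.60 and 1.90 CPM in Calca-high Rb1/Trp53/Crebbp libraries, against 5.16, 4.28 and 3.76 CPM in Calca-high Rb1/Trp53 ones. These did not overlap either, but the call of its log2 fold change of -1.09 ± 0.33 (adjusted p = 0.0349) was lost in 5 of 7 fits that left out a library (adjusted p up to 0.1). Pomc-high values of S1pr1 were 2.74, 1.33, 1.21 and 18.3 CPM in Rb1/Trp53/Crebbp, against 2.87 to 4.70 CPM (median 3.02) in Rb1/Trp53, with 0.86 ± 0.67 (adjusted p = 0.461). The library at 18.3 CPM was T8, and the other 3 lay below all of Rb1/Trp53.

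Nos3, the endothelial nitric oxide synthase, had 2.64, 4.40, 3.33 and 3.26 CPM in Calca-high Rb1/Trp53/Crebbp libraries, against 6.76, 5.30 and 6.77 CPM in Calca-high Rb1/Trp53 ones, a log2 fold change of -0.86 ± 0.24 (adjusted p = 0.0241). The groups were separate, and the call was lost in 4 of 7 fits that left out a library. Pomc-high values of Nos3 were 4.54, 4.59, 4.40 and 5.41 CPM in Rb1/Trp53/Crebbp, against 3.56 to 5.74 CPM (median 4.97) in Rb1/Trp53, with 0.00 ± 0.19. Apold1, an immediate early gene of endothelium, was separate between the genotypes in each set but in opposite directions. It stood at 5.49 to 6.33 CPM in Rb1/Trp53/Crebbp against 3.86 to 4.47 CPM in Rb1/Trp53 in the Calca-high libraries (0.53 ± 0.19, adjusted p = 0.0589). Among Pomc-high libraries it stood at 5.70 to 8.73 CPM in Rb1/Trp53/Crebbp against 8.80 to 12.3 CPM in Rb1/Trp53 (-0.52 ± 0.16, adjusted p = 0.067). Aplnr, the apelin receptor, was at most 1.19 CPM and had -0.35 ± 0.47 in the Calca-high libraries.

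Plvap, the diaphragm protein of fenestrated capillaries, fell in each set. It had 28.2, 40.5, 29.8 and 39.0 CPM in Calca-high Rb1/Trp53/Crebbp libraries, against 49.5, 57.6 and 54.7 CPM in Calca-high Rb1/Trp53 ones, a log2 fold change of -0.63 ± 0.14 (adjusted p = 0.0118). Pomc-high values of Plvap were 15.5, 10.1, 10.1 and 14.6 CPM in Rb1/Trp53/Crebbp, against 15.8 to 40.2 CPM (median 27.0) in Rb1/Trp53, a log2 fold change of -1.19 ± 0.25 (adjusted p = 0.0124). The genotypes did not overlap in either set, although in the Pomc-high one the closest libraries nearly met. Lyve1, a marker of lymphatic vessels and of some macrophages, had -0.60 ± 0.46 in the Calca-high and -0.50 ± 0.40 in the Pomc-high libraries (adjusted p = 0.333 and 0.472).

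**Figure D2:**
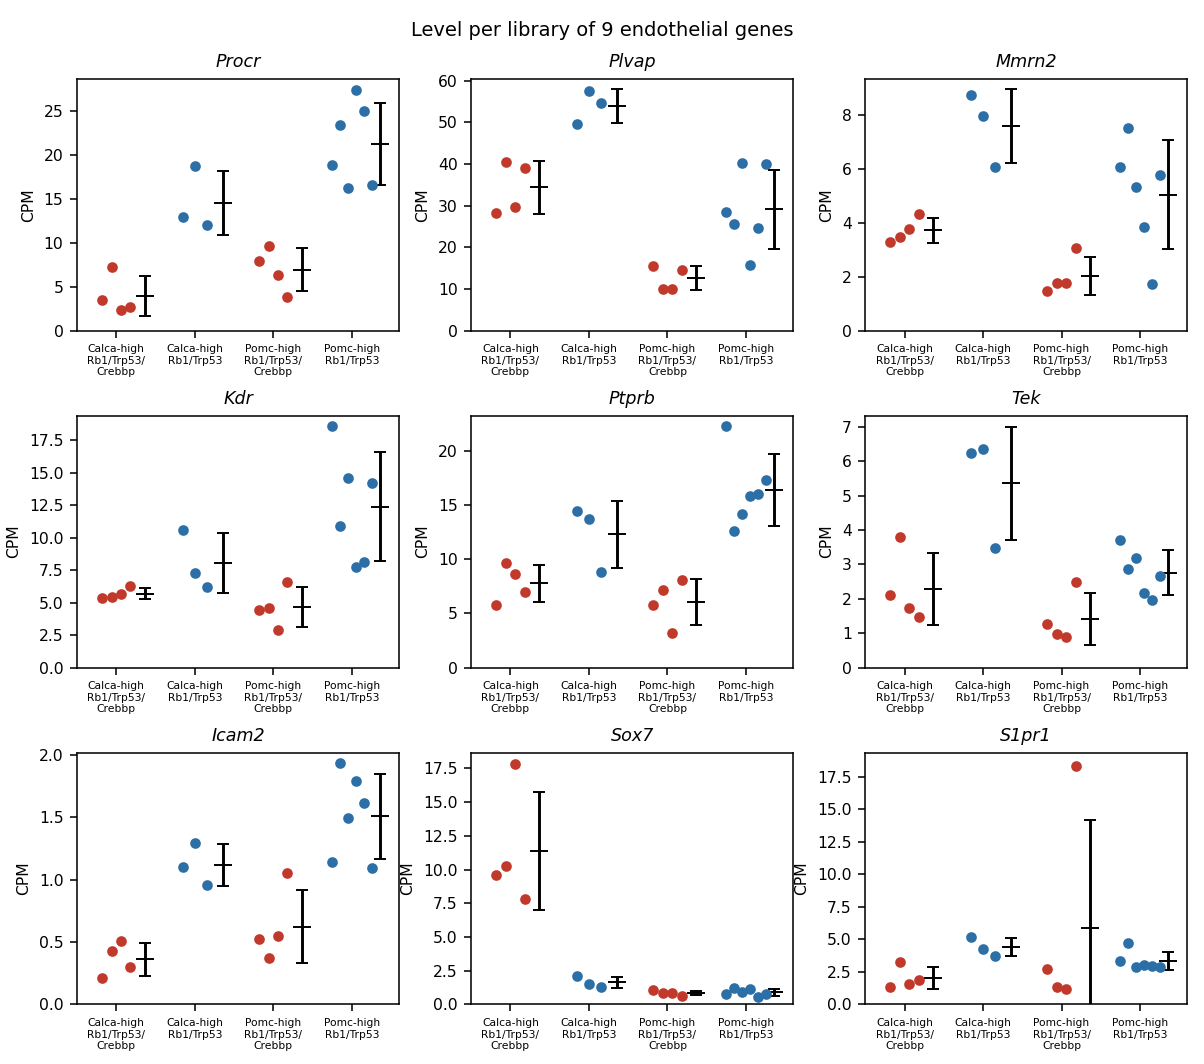
Level (CPM) in every library of 9 endothelial genes, with Rb1/Trp53/Crebbp libraries in red and Rb1/Trp53 libraries in blue, and the mean ± SD beside each group. Procr is lower in each Rb1/Trp53/Crebbp group without overlap, Sox7 is high in the 4 Calca-high Rb1/Trp53/Crebbp libraries alone, and S1pr1 reaches 18.3 CPM in a single Pomc-high Rb1/Trp53/Crebbp library, whose group's error bar is drawn only down to 0.

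Whether the genotype effect differed between the sets was tested by an interaction. It passed for 4 of the 33 genes, where 22.9% of 15432 genes passed. The genotype effect in the Calca-high minus that in the Pomc-high libraries was 2.90 ± 0.45 for Sox7 (adjusted p = 0.000546) and 1.05 ± 0.23 for Apold1 (adjusted p = 0.00507). It was -0.85 ± 0.29 for Egfl7 (adjusted p = 0.0461) and -0.85 ± 0.29 for Nos3 (adjusted p = 0.042), and these were lost in 13 and 12 of the 17 fits that left out a library. The count was 2 genes without Rb1/Trp53/Crebbp T3, T5 or T7 or without Rb1/Trp53 T2, T7 or T9. For Kdr the interaction was 0.91 ± 0.40 (adjusted p = 0.105) and for Ptprb 0.76 ± 0.36 (adjusted p = 0.13), so their passing in the Pomc-high libraries alone is not shown to be a difference between the sets. The same holds for the genes that passed in the Calca-high libraries alone, other than Sox7 and Nos3.

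To follow the level of endothelial genes as a group, the CPM of 7 core genes was summed in each library (Pecam1, Cdh5, Tie1, Esam, Clec14a, Mmrn2 and Erg). Long and abundant genes weigh more in this core sum, and it is a level of RNA and not a count of cells. Erg in the Calca-high and Clec14a in the Pomc-high libraries did not fall with it. The core sum was 35.7 ± 4.73 CPM in Calca-high Rb1/Trp53/Crebbp libraries (SD, n = 4) and 60.4 ± 5.64 CPM in Calca-high Rb1/Trp53 ones (SD, n = 3), a ratio of 0.591. The ranges of 30.2 to 41.7 CPM and 55.5 to 66.6 CPM did not overlap. Among Pomc-high libraries the core sum was 23.2 ± 9.75 CPM in Rb1/Trp53/Crebbp (SD, n = 4) and 38.8 ± 9.83 CPM in Rb1/Trp53 (SD, n = 6), a ratio of 0.598. The ranges overlapped there, from 15.9 to 37.2 CPM in Rb1/Trp53/Crebbp, with T8 the highest, and from 22.9 to 49.6 CPM in Rb1/Trp53. The sum over all 33 genes did not overlap in either set. It was 241 ± 37.5 CPM in Calca-high Rb1/Trp53/Crebbp and 337 ± 32.3 CPM in Calca-high Rb1/Trp53 libraries (SD, n = 4 and 3), a ratio of 0.717. It was 184 ± 34.4 CPM in Pomc-high Rb1/Trp53/Crebbp and 272 ± 29.5 CPM in Pomc-high Rb1/Trp53 libraries (SD, n = 4 and 6), a ratio of 0.676.

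**Figure D3:**
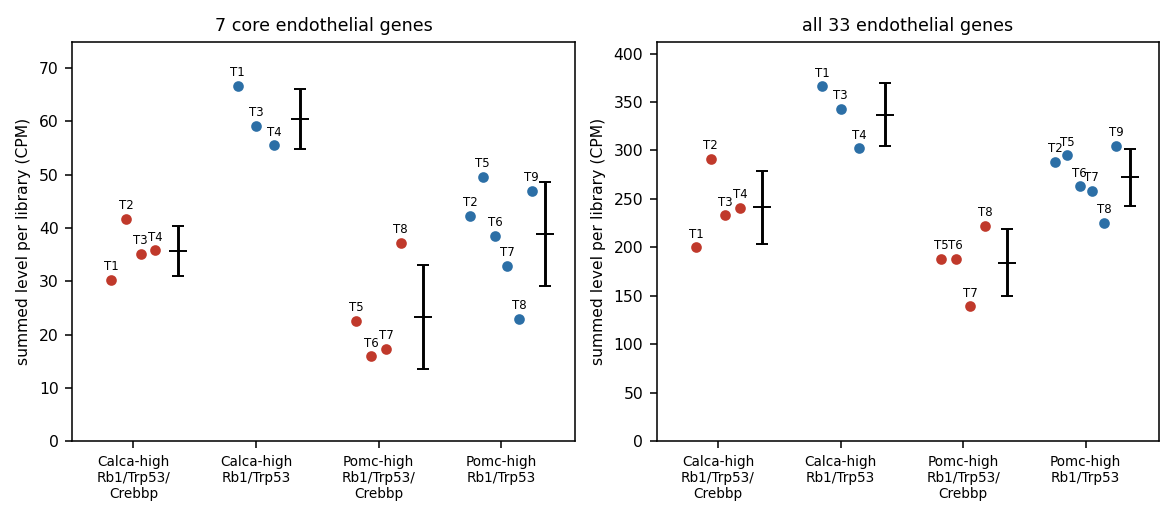
Summed level per library (CPM) of the 7 core endothelial genes and of all 33 genes, in Rb1/Trp53/Crebbp (red) and Rb1/Trp53 (blue) libraries of each set, with tumour numbers, the mean and the SD. The core sums of the Calca-high genotypes are apart, while in the Pomc-high libraries Rb1/Trp53/Crebbp T8 at 37.2 CPM lies within the Rb1/Trp53 range.

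Which library was highest or lowest was counted over the genes of each group. Rb1/Trp53/Crebbp T1 was the lowest of the 4 Calca-high Rb1/Trp53/Crebbp libraries in 21 of 31 genes and T2 the highest in 16. Of the 3 Calca-high Rb1/Trp53 libraries, T1 was the highest in 17 of 33 genes and the lowest in 6, and T4 the lowest in 22 and the highest in 9. Of the 6 Pomc-high Rb1/Trp53 libraries, T5 was the highest in 11 of 29 genes and T8 the lowest in 14. The genes counted reached 1 CPM in at least 1 library of the group, and the libraries of a group share depth and composition over all of them, so these counts are a description.

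To see which genes differed beyond the core level, the genotype was tested again for the other 26 genes with the core level, the mean log2 CPM of the 7 core genes, as a term. With both this term and the set fitted to all 17 libraries, Procr fell by 2.06 ± 0.33 on the log2 scale (adjusted p = 0.00119) and Icam2 fell by 1.10 ± 0.32 (adjusted p = 0.0359), while 10 of the 26 fell without the core term. Of all 15432 genes 12.8% passed with it. The median log2 fold change of the 26 was -0.13 with the core term and -0.61 without it. The core level was itself lower on average in Rb1/Trp53/Crebbp in each set, so genes that vary with it move toward 0 by construction. This fit also includes the Calca-high libraries, where core level and genotype cannot be told apart. Tek, for instance, had -0.42 ± 0.28 with the term and -1.09 without, Sox18 -0.27 ± 0.24 and -1.05, and Eng 0.03 ± 0.22 and -0.77. Ptprb kept -0.81 ± 0.27 of -1.10 (adjusted p = 0.0595), Emcn -0.70 ± 0.27 of -0.91 (adjusted p = 0.094) and Plvap -0.61 ± 0.24 of -0.97 (adjusted p = 0.0941). Procr passed in all 17 fits that left out a library, while Icam2 was lost in 6 of them (adjusted p up to 0.177), and the count was 1 gene without Rb1/Trp53 T3 or without Rb1/Trp53/Crebbp T4.

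Within the Pomc-high libraries 3 of 21 genes passed with the core term, where 10.1% of 14010 genes did. Procr fell by 2.15 ± 0.26 on the log2 scale (adjusted p = 0.000607) and Ptprb fell by 1.20 ± 0.28 (adjusted p = 0.0182), and S1pr1 rose by 1.62 ± 0.46 (adjusted p = 0.0442). Procr passed in all 10 fits that left out a library. Without Rb1/Trp53/Crebbp T8, the library with 18.3 CPM of S1pr1, the count was 1 gene, the log2 fold change of S1pr1 was -0.41 (adjusted p = 0.858) and that of Ptprb was -1.53 (adjusted p = 0.155). S1pr1 also missed the threshold in 6 other fits, without Rb1/Trp53 T2, T5, T6, T7 or T9 or without Rb1/Trp53/Crebbp T5, and Ptprb without Rb1/Trp53 T8 (-1.06, adjusted p = 0.12). In the Calca-high libraries the core level itself did not overlap between the genotypes, so core level and genotype cannot be told apart there. With the core term 11 of 14797 genes passed (0.0743%) and 0 of 25 endothelial genes did in edgeR, 4 of them with an unadjusted p under 0.05.

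**Figure D4:**
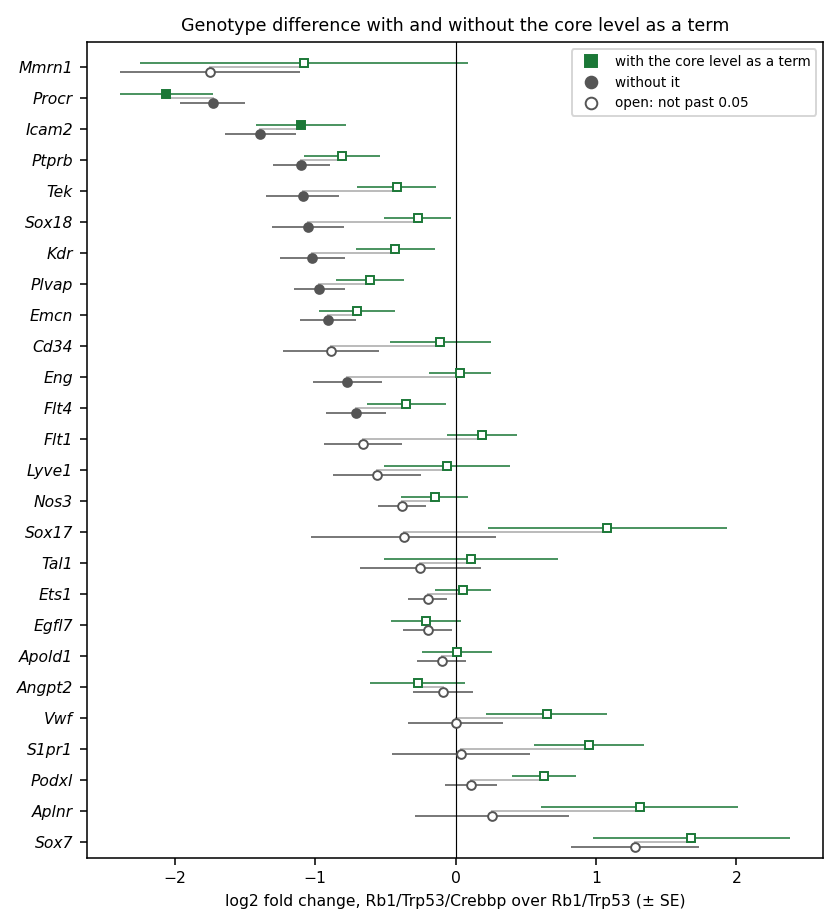
Log2 fold change (± SE, edgeR), Rb1/Trp53/Crebbp over Rb1/Trp53 fitted to all 17 libraries with a term for the set, of the 26 endothelial genes outside the core, with the core level as a further term (green squares) and without it (grey circles). Filled marks have an adjusted p under 0.05. With the core term most genes move toward 0, while Procr at -2.06 and Icam2 at -1.10 stay past the threshold. The core level itself differs with genotype, so a move toward 0 is in part built in.

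Between the sets the share of endothelial genes past the threshold was close to that of all genes, or below it within a genotype. With the genotype as a term, 16 of 33 genes were higher and 3 lower in Calca-high than in Pomc-high libraries, where 60.1% of all 15432 genes passed, 31.1% as higher and 28.9% as lower. The median log2 fold change, Calca-high over Pomc-high, was 0.60, against 0.01 for all genes tested. Of the 6 transcription factors 5 were higher, as were the fenestral and the lymphatic marker. Tal1 was higher by 2.96 ± 0.43, Sox7 by 2.37 ± 0.44 and Ets1 by 1.40 ± 0.14, each without overlap between the sets. For Sox7 the closest libraries of the sets were at 1.30 and 1.25 CPM. In fits that left out a library its difference was 3.39 to 3.86 in Rb1/Trp53/Crebbp but 0.63 to 0.99 in Rb1/Trp53 tumours. Tal1 and Sox7 were too low to be tested within the Pomc-high libraries. Lyve1 was higher by 1.64 ± 0.31, Plvap by 1.16 ± 0.18, Eng by 1.07 ± 0.24 and Pecam1 by 0.90 ± 0.20. Mmrn1 and Aplnr, also too low to be tested within the Pomc-high libraries, were higher by 3.17 ± 0.61 and 2.12 ± 0.55. Mmrn1 stood at 0.151 to 5.16 CPM in Calca-high against 0 to 0.638 CPM in Pomc-high libraries. Aplnr stood at 0.32 to 1.19 CPM against 0 to 0.727 CPM, so both overlapped. Tal1, Mmrn1 and Aplnr passed the low-count filter through their Calca-high levels, so a higher level there was favoured in advance.

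The 3 genes that were lower in the Calca-high libraries were Angpt2 (-1.29 ± 0.23, adjusted p = 9.28e-05), Apold1 (-0.74 ± 0.18, adjusted p = 0.00169) and Procr (-0.67 ± 0.23, adjusted p = 0.0192). Angpt2 stood at 12.9 to 30.6 CPM in the 7 Calca-high libraries against 22.8 to 73.0 CPM in the 10 Pomc-high ones, with little overlap. Kdr, Ptprb, Esam, Emcn, Clec14a, Egfl7 and Nos3 had differences of 0.17 or less in size on the log2 scale, with SE of 0.17 to 0.23. Within Rb1/Trp53/Crebbp tumours 12 genes were higher and 1 lower (53.7% of all genes passed), and within Rb1/Trp53 tumours 12 were higher and 2 lower (55.7% passed). Without T8 the Rb1/Trp53/Crebbp count was 20 genes. Upper-quartile in place of TMM scaling gave 10 higher and 4 lower in Rb1/Trp53/Crebbp tumours. The core sum of Calca-high libraries was 1.54 times that of Pomc-high ones in Rb1/Trp53/Crebbp tumours, with overlapping ranges, and 1.56 times in Rb1/Trp53 tumours, without overlap. Tumour type, stroma and endothelial content differ together between the sets and cannot be told apart.

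**Figure D5:**
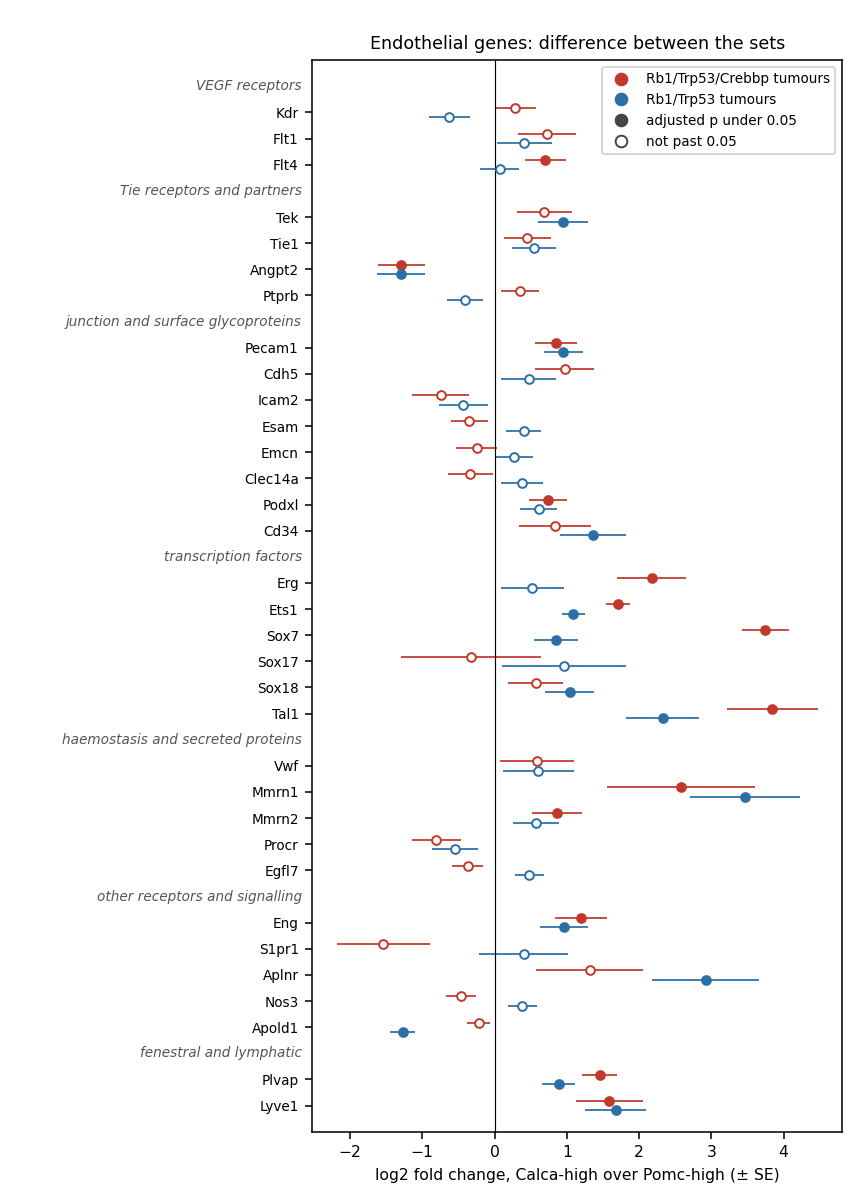
Log2 fold change (± SE, edgeR), Calca-high over Pomc-high, of the 33 endothelial genes in Rb1/Trp53/Crebbp tumours (red, 4 against 4) and Rb1/Trp53 tumours (blue, 3 against 6), ordered by role. Filled points have an adjusted p under 0.05. Most points lie right of 0, Angpt2 lies at about -1.29 in each genotype, and Sox7 and Tal1 lie farthest to the right in Rb1/Trp53/Crebbp tumours.

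Other genes of endothelial cells, outside the 33, were read for comparison. Of 21 tested in the Calca-high libraries, 8 fell and 1 rose, where 17.1% of all genes were lower and 19.1% higher. With the set as a term 7 of 22 fell, where 9.51% of all genes were lower. In that fit Ushbp1, an endothelial gene whose role is little known, had -1.21 ± 0.22 (adjusted p = 0.00172) and Cd93, a receptor that binds the Mmrn2 protein, had -0.87 ± 0.25 (adjusted p = 0.0241). Of the 17 tested in the Pomc-high libraries 0 passed in edgeR, where 8.42% of all genes did. Among the 17, 4 had an unadjusted p under 0.05, and the median log2 fold change was -0.52. Their summed level was 95.5 ± 11.2 CPM in Calca-high Rb1/Trp53/Crebbp libraries (SD, n = 4) and 140 ± 26.4 CPM in Calca-high Rb1/Trp53 ones (SD, n = 3), without overlap. Among Pomc-high libraries it was 62.0 ± 24.1 CPM in Rb1/Trp53/Crebbp (SD, n = 4) and 76.8 ± 15.9 CPM in Rb1/Trp53 (SD, n = 6), with overlap.

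Genes of mural cells, the pericytes and smooth muscle cells around vessels, were read in the same way. With the set as a term 8 of 15 fell, where 9.51% of all genes were lower, among them Notch3, a pericyte receptor (-0.79 ± 0.18), Abcc9, a channel subunit of pericytes (-0.73 ± 0.17), and Acta2, smooth muscle actin (-1.30 ± 0.34). Of 15 tested in the Calca-high libraries 5 fell, where 17.1% of all genes were lower. The sum of the mural genes was 86.4 to 170 CPM in Rb1/Trp53/Crebbp against 129 to 229 CPM in Rb1/Trp53. Of 12 tested in the Pomc-high libraries 3 fell, where 5.26% of all genes were lower. Their sum there was 48.5 to 94.6 CPM in Rb1/Trp53/Crebbp against 75.9 to 125 CPM in Rb1/Trp53. The sums overlapped between the genotypes in each set, and none of the 15 genes was at 0 throughout a group.

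The ligands that act on the endothelial receptors were read next. Among 15 angiogenic ligands and co-receptors, the fit with a term for the set had 2 lower and 1 higher. Of all genes, 17.6% passed in that fit, 9.51% as lower and 8.13% as higher. The one that rose was Angpt1, the ligand that activates Tek (0.61 ± 0.20, adjusted p = 0.0431). Those that fell were Esm1, known as a marker of endothelial tip cells (-0.58 ± 0.17, adjusted p = 0.0254), and Edn1, endothelin (-1.71 ± 0.50, adjusted p = 0.0257). Esm1 stood at 257 to 712 CPM in the Pomc-high libraries but at 2.05 to 4.67 CPM in the Calca-high ones. All the endothelial genes described here summed to 139 to 305 CPM in the Pomc-high libraries. Which cells made Esm1, and whether its fall reflects tip cells, was not tested. Within the sets, 6 of 15 fell among Calca-high and 3 of 13 among Pomc-high libraries. Of all genes tested, 17.1% were lower and 19.1% higher in the Calca-high libraries, and 5.26% and 3.15% in the Pomc-high ones. The hypoxia and Notch counts below are to be read against the same shares. Vegfa, the ligand of Kdr and Flt1, stood at 125, 159, 169 and 130 CPM in Pomc-high Rb1/Trp53/Crebbp libraries, against 213 to 296 CPM in Pomc-high Rb1/Trp53 ones. The groups were far apart there (-0.66 ± 0.12, adjusted p = 0.00615), while in the Calca-high libraries Vegfa had 0.37 ± 0.20 (adjusted p = 0.178). Hypoxia and glycolysis genes, a list that holds Vegfa, had 3 of 10 higher in the Calca-high and 5 of 10 lower in the Pomc-high libraries. Of 12 vascular Notch genes, 4 fell in the Calca-high and 3 in the Pomc-high libraries. Hes1, a Notch target of many cell types, fell in both (-1.64 ± 0.27 and -0.82 ± 0.22), and Notch4, the endothelial Notch receptor, had -0.54 ± 0.18 (adjusted p = 0.0518) and -0.52 ± 0.12 (adjusted p = 0.0217).

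Genes of some other cells also differed between the genotypes, and their part in the endothelial results was not tested. The Calca-high counts that follow stand beside 17.1% of all genes lower and 19.1% higher. In the Calca-high libraries thyroid follicle genes summed to 928 to 1300 CPM in Rb1/Trp53/Crebbp against 2110 to 16800 CPM in Rb1/Trp53, and 5 of 5 fell. Fat cell genes summed to 13.5 to 26.1 CPM in Rb1/Trp53/Crebbp against 53.5 to 277 CPM in Rb1/Trp53, and 6 of 6 tested fell. Fibroblast genes summed to 248 to 774 CPM in Rb1/Trp53/Crebbp against 897 to 1100 CPM in Rb1/Trp53, and 1 of 10 fell. Those 3 sums did not overlap. Macrophage genes summed to 103 to 311 CPM in Rb1/Trp53/Crebbp against 286 to 327 CPM in Rb1/Trp53, and 3 of 16 fell, near the share of all genes. Of these 16, however, 15 had a negative sign, and their median log2 fold change was -0.51, against -0.02 for all genes tested. Lung epithelium genes, at 38.9 to 66.8 CPM in Rb1/Trp53/Crebbp against 62.9 to 160 CPM in Rb1/Trp53, had 2 of 4 lower and 1 higher. Platelet genes had 1 of 4 lower, and red cell genes 0 of 2 in edgeR with 0 at an unadjusted p under 0.05. Lymphatic genes other than Lyve1 and Flt4 had 1 of 3 lower and 1 higher, with Ccl21a at 0 in all 17 libraries. Prox1, one of the 3, stood higher, at 105 to 159 CPM in Rb1/Trp53/Crebbp against 41.6 to 47.3 CPM in Rb1/Trp53. Lyve1 reached at most 7.92 CPM, and which cells made Prox1 was not tested. Of the tumour cells' own genes, 3 of 4 C-cell genes and 4 of 5 neuroendocrine genes fell.

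In the Pomc-high libraries macrophage genes summed to 36.1 to 229 CPM in Rb1/Trp53/Crebbp against 142 to 400 CPM in Rb1/Trp53, and 3 of 16 fell. Of all genes tested in this set, 5.26% were lower. Fibroblast genes overlapped more, at 93.8 to 348 CPM in Rb1/Trp53/Crebbp against 94.5 to 293 CPM in Rb1/Trp53. Thyroid follicle genes were at 7.05 to 22.0 CPM in Rb1/Trp53/Crebbp against 10 to 161 CPM in Rb1/Trp53. Fat cell genes were at 196 to 402 CPM in Rb1/Trp53/Crebbp against 515 to 709 CPM in Rb1/Trp53 with 1 of 2 lower, Lpl, while Adipoq, their defining marker, was at most 0.638 CPM. Of the pituitary genes 1 of 5 fell.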

How the data were processed

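Messenger RNA of 17 tumours was sequenced as poly(A) libraries with a kit that does not mark strand. The authors deposited raw counts per gene for each tumour. Per the submitters' processing notes, bcl2fastq 1.8.2, TopHat2 2.0.12 and HTSeq 0.6.1 were used with the genome build mm9. The sources used here give no annotation or strand setting, so reads of overlapping genes cannot be told apart. The 5 summary rows of each table were left out, and reads assigned to genes were 64.55 to 78.29% of each table's total. CPM was computed from the deposited counts with TMM scaling. Genes passing edgeR's low-count filter were tested with its quasi-likelihood test (R 4.3.3, edgeR 4.0.16, limma 3.58.1) and adjusted over all of them. The threshold was an adjusted p of 0.05. Alternatives were other scalings and filters, DESeq2 1.42.0, limma-voom, a replicate block and leaving out each library. Figures were drawn with matplotlib 3.10.9. All 33 genes are named, and of other lists those with the smallest p with the set as a term. Other genes, Vegfa and Adipoq among them, were chosen after their values were seen. The members and lists were chosen with earlier results of these data known. Tests were also run on simulated data. RefSeq promoters are on GRCm38.p6, and no mm9 coordinate was used. Replicates differed by more than sampling noise.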

Additional observations from a re-analysis of the deposited data

Results flagged for a closer look

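Of 99 combinations of an endothelial gene and a group of 4 or 6 libraries, 8 had a library far from the others, by Dixon's gap ratio at its critical value for the group's size. Chance flags about 1 in 20 such groups. Of the 8, 4 were in a single library.

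In the Pomc-high Rb1/Trp53/Crebbp tumour T8, 4 genes stood far above the other 3 libraries of the group. They were S1pr1 at 18.3 CPM, Pecam1 at 10.7 CPM, Flt1 at 8.56 CPM and Sox18 at 2.5 CPM. In the Calca-high Rb1/Trp53/Crebbp group Angpt2 stood apart in T2, at 30.6 CPM. In the Pomc-high Rb1/Trp53 group Egfl7 stood apart in T6 at 10.4 CPM, and S1pr1 and Apold1 in T5 at 4.7 and 12.3 CPM.

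The genotype effect differed between the sets for 4 genes by the interaction term. On the log2 scale the effect in the Calca-high minus that in the Pomc-high libraries was 2.9 for Sox7, 1.05 for Apold1, -0.85 for Egfl7 and -0.85 for Nos3.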

How the results depend on the processing

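The samples of a number did not deviate together: over 8 numbers the correlation of deviations was -0.18 to 0.20, above 0.1 in 2, and 2 of 8 samples correlated best with their own number. The number also follows the set by construction, since T2 alone spans both. With the replicate number as a block, 2 genes passed in the Pomc-high libraries (6 without it), 10 in the Calca-high ones (14), 9 of them shared, with Eng, Esam, Icam2, Mmrn2 and Nos3 lost, 5 with the set as a term (14) and 3 over all libraries (6). The interaction had 1 (4) with the block, and the set comparison 0 (19), with 1 (13) in Rb1/Trp53/Crebbp and 0 (14) in Rb1/Trp53 tumours. Under the block, between the sets, Angpt2 turned to 0.08, and to 0.24 in Rb1/Trp53 tumours, and Procr turned to 0.64.

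DESeq2 called 11 genes over all libraries, and without the low-count filter 2 interactions passed; the cause was not tested. With all other genes as the core, 1 gene passed in the Calca-high libraries (0). The genotype difference in the mean log2 core sum there, -0.76, was -0.55 on plain CPM and -0.49 with all 33 genes. A call to which DESeq2 gave no adjusted p was counted as kept if its direction held. Of 90 calls, 90 kept direction and threshold under RLE scaling and, by that rule, under DESeq2, 88 under upper-quartile scaling, 84 without the filter and 84 under limma-voom. Of the 84 tested at a minimum of 1 CPM, 84 did. Under the block 21 of the 90 did, 66 missed the threshold and 3 reversed.

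Leaving out each library gave 4 to 14 genes in the Pomc-high libraries, 9 to 19 in the Calca-high ones, 12 to 19 with the set as a term and 5 to 7 over all. It gave 2 to 4 interactions and 18 to 22 genes between the sets, 9 to 20 in Rb1/Trp53/Crebbp and 12 to 16 in Rb1/Trp53 tumours. The genotype difference in the mean log2 core sum ranged from -1.04 to -0.63 in the Pomc-high and from -0.84 to -0.69 in the Calca-high libraries. Given the core level, a setting chosen after seeing the data, leaving out each library gave 1 to 3 genes with the set as a term. It gave 1 to 3 in the Pomc-high and 0 to 0 in the Calca-high libraries, and S1pr1 ranged from -0.41 to 2.52. Genes near 1 CPM, such as Sox17, Tal1, Aplnr and Icam2, rest on few reads, and the depth limits what can be shown for them.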
